A study of Mus musculus with 15 samples.

Results

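The genes of voltage-gated ion channels and their relatives were described in mouse retina at postnatal day 2 (P2). Members were the genes whose symbols begin with Kcn (potassium channels), match the Scn a or b subunits (sodium channels), begin with Cacna, Cacnb or Cacng (calcium channels) or belong to the Hcn family, with Kcne2, Kcnj8 and Kcnj10 left out. Of 16098 gene symbols in the tables, 98 matched. The transcripts of each gene were summed as FPKM (fragments scaled by transcript length and by library, so that levels are per length), and 91 genes with 0.5 FPKM or more in a group of any table were kept, of 14978 kept symbols in all. They comprised 50 potassium, 8 sodium, 24 calcium and 4 HCN channel genes, with 5 more genes that matched by symbol but encode no subunit: the opposite-strand genes Kcnmb4os1, Kcnmb4os2, Kcnd3os and Kcnab3os, and Kcnrg, a regulator of potassium channels. The symbols reach beyond gating by voltage, since they also take 5 inward rectifiers, 5 two-pore leak channels and accessory subunits. The 7 genes that stayed below the threshold in every table included Kcnh1, Kcnh7, Kcnj4, Kcnk4, Kcnk9 and Kcnmb2. Closest to the threshold, Kcnj13 was kept with 0.5001 FPKM in WT in one table and left out with 0.498 FPKM in WT in another. Kcnab3os was kept with 0.682 FPKM in WT beside MUT and left out with 0.479 FPKM in HET beside MUT. Of the genes outside in every table, Kcnh7 came closest with 0.470 FPKM.

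Voltage-gated channels open or close a pore as the membrane potential changes. Sodium channels carry the upstroke of the action potential, potassium channels repolarise the membrane, calcium channels couple depolarisation to transmitter release and transcription, and HCN channels carry a cation current that opens on hyperpolarisation. Accessory subunits set where the pores go and how they gate. In the mature retina the photoreceptor synapse relies on a calcium channel built from Cacna1f and Cacna2d4, while spikes are largely a matter of ganglion and amacrine cells; at P2 many of these cells are still immature and rods are still being born.

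Bulk RNA of whole retinas of strain CD-1 was sequenced in 15 samples, 5 in each of 3 groups by the labels. WT retinas had the genotype Neurog2CKO/CKO, in which both copies of the proneural transcription factor gene Neurog2 are conditional alleles and no Cre is present. HET retinas were Chx10Cre;Neurog2CKO/+ and MUT retinas Chx10Cre;Neurog2CKO/CKO. Both of these carried Cre named for Chx10, a gene of retinal progenitor cells, so that the comparisons of WT with HET and with MUT also compare retinas without and with Cre. The deposited values are FPKM pooled over a group, 1 value per transcript and group, with the authors' Cuffdiff test for each pair of groups; spread between samples and depth per sample are unknown, and the labels do not say whether samples came from separate animals. Below, ± after a log2 fold change is the error implied by the deposited test statistic. A transcript was called at a q-value (p adjusted over the authors' tests) under 0.05, and a second, looser count took an unadjusted p under 0.05. WT and MUT levels were read from the table of that pair and HET levels from the table with WT, unless a comparison of HET with MUT is named; a channel transcript's level in the same group differed between tables by at most 0.640%. Sums differ more where the tables list different transcripts of a gene, as for Kcnd3os, with 0.474 and 0.280 FPKM in WT; levels across the 3 groups are sums over the transcripts shared by all tables, and ratios use all transcripts of their table. The 3 comparisons share their groups, so their values are set side by side and are not independent.

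Neurog2 stood at 59.5 FPKM in WT, 42.4 FPKM in HET and 10.6 FPKM in MUT, the order of the labels. Retinal markers were present, and of 5 muscle markers only Myh3 was analysed, with WT levels of 0.381 and 0.659 FPKM in the tables with HET and with MUT. All 7 rod markers listed were lower in MUT than in WT, with a median log2 ratio of -0.27 and a summed level of 615 FPKM in WT and 504 FPKM in MUT. None of the 7 was near 0. The 8 microglial markers were all higher, with a summed level of 67.0 FPKM in WT and 99.1 FPKM in MUT. Sex-linked genes differed as well: Xist had 98.8 FPKM in WT, 63.2 FPKM in HET and 135 FPKM in MUT, and the Y-linked Kdm5d had WT and MUT levels of 3.73 and 0.00117 FPKM in the table of that pair. Their part in the channel values below was not tested.

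The P2 retina held a broad channel repertoire, led by accessory subunits rather than pores. Of the 90 kept genes with transcripts shared by all tables, 18 reached 10 FPKM in WT, 52 lay between 1 and 10 FPKM and 20 under 1 FPKM. At the top stood Kcne1l, an accessory subunit of the Kv channels, with 54.5 FPKM in WT, 51.2 FPKM in HET and 50.1 FPKM in MUT. Beside it were the gamma subunits Cacng4, with 52.9, 55.4 and 54.1 FPKM, and Cacng7, with 51.8, 59.9 and 64.1 FPKM in WT, HET and MUT. The Cacng family is named for calcium channels, but most of its members escort AMPA-type glutamate receptors. Cacnb3, a beta subunit that brings calcium channel pores to the membrane, had 44.3, 42.6 and 41.5 FPKM in the same order. Kcnab2, a cytoplasmic beta subunit of Kv1 channels, had 33.3, 32.8 and 29.8 FPKM.

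**Figure D1:**
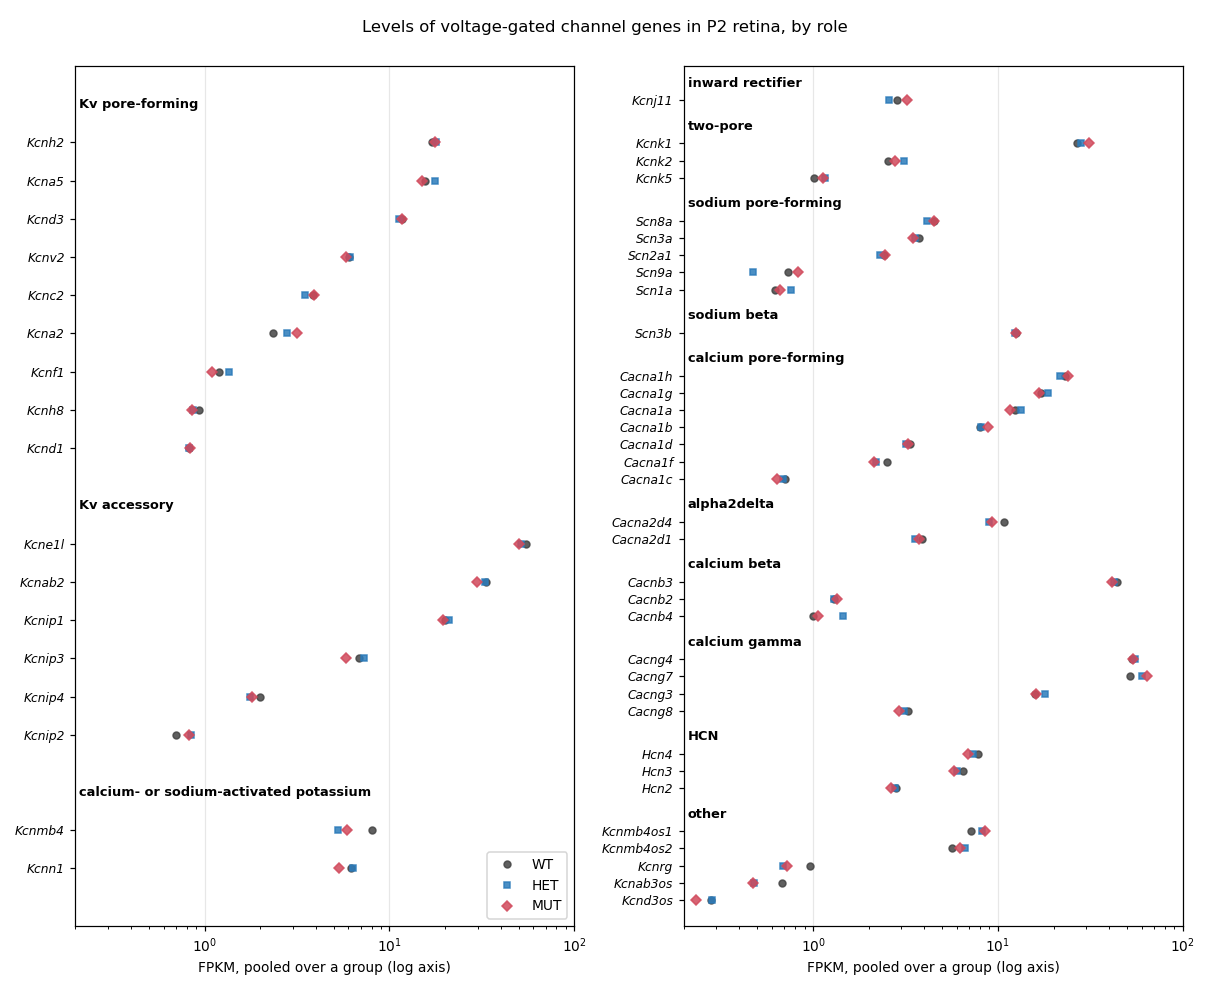
Summed FPKM (horizontal, log axis) of the channel genes named in the text that have transcripts shared by all tables, in rows by role, with circles for WT, squares for HET and diamonds for MUT, 1 pooled value per group and no error. The symbols of most genes overlap, Cacng7 and Kcnk1 step upward from WT through HET to MUT, and Kcnmb4 is highest in WT.

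Summed over coding and non-coding transcripts, the most abundant calcium channel pores were 2 T-type channels, which open near rest. Cacna1h (Cav3.2) stood at 23.2, 21.8 and 23.9 FPKM in WT, HET and MUT, and Cacna1g (Cav3.1) at 17.2, 18.8 and 16.7 FPKM. In these sums Cacna1a, the P/Q-type pore of fast synapses, had 12.4 FPKM in WT and Cacna1b, the N-type pore, 8.00 FPKM. Of the Cacna1a sum, 3.56 FPKM came from coding transcripts. The sums of the L-type pores were lower, with 3.34 FPKM for Cacna1d, 2.50 FPKM for Cacna1f and 0.702 FPKM for Cacna1c in WT. In these sums Cacna1h and Cacna1g stood above these high-voltage-activated pores in every group. Over coding transcripts alone, Cacna1h still did, with 19.4, 17.4 and 18.5 FPKM in WT, HET and MUT. Cacna1g instead lay below Cacna1b in every group. Beside each other, WT and MUT had coding levels of 8.49 and 9.16 FPKM for Cacna1b, against 7.32 and 6.03 FPKM for Cacna1g. The HET levels, read beside WT, were 7.49 FPKM for Cacna1b against 7.17 FPKM for Cacna1g.

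The potassium pores were led by the leak channel Kcnk1 (TWIK1), with 26.8, 28.1 and 31.1 FPKM in WT, HET and MUT. Next came Kcnh2 (ERG1), a slowly deactivating delayed rectifier, with 17.0, 17.8 and 17.7 FPKM. Kcna5 (Kv1.5) had 15.6, 17.6 and 14.9 FPKM, and Kcnd3 (Kv4.3), a pore of the fast A-type current, 11.8, 11.3 and 11.7 FPKM. The Kv4 partner Kcnip1 stood above its pores, with 20.0, 20.9 and 19.4 FPKM. The inward rectifiers kept here, without Kcnj8 and Kcnj10, were low, led in WT by Kcnj11 with 2.84 FPKM.

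Sodium channel pores stayed under 5 FPKM. Scn8a (Nav1.6) had 4.54, 4.14 and 4.52 FPKM in WT, HET and MUT, and Scn3a (Nav1.3), the pore of immature neurons, 3.74, 3.55 and 3.46 FPKM. Scn2a1 (Nav1.2) had 2.43 FPKM in WT, and Scn1a and Scn9a stood under 1 FPKM. The accessory subunit Scn3b exceeded every sodium pore at 12.6, 12.4 and 12.6 FPKM. Of the HCN pores, Hcn4, the slow form known from the cardiac pacemaker, had 7.81, 7.35 and 6.94 FPKM in WT, HET and MUT. Hcn3 had 6.49, 5.98 and 5.76 FPKM and Hcn2 2.81, 2.77 and 2.63 FPKM, the same order in each group.

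Most pooled levels, which have no error, lay within 25% of each other across genotypes. For 35 of the 90 genes the highest group was less than 10% above the lowest, for 80 it was less than 25% above, and the median gap was 12.3%. These gaps were not counted over all genes. The median absolute log2 ratio was larger for members than for all genes. It was 0.09 beside 0.07 from WT to HET, 0.10 beside 0.08 from WT to MUT, and 0.09 beside 0.06 from HET to MUT. The gap between groups exceeded 50% for 2 of the 90 genes. Scn9a (Nav1.7) had 0.728 FPKM in WT, 0.475 FPKM in HET and 0.830 FPKM in MUT, a level at which the authors' deposited tables gave its transcripts unadjusted p-values of 0.181 or more. Kcnmb4 is taken up below.

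Set against WT, MUT retinas carry Cre beside 2 conditional Neurog2 copies. In the authors' deposited table a transcript of Cacna1g fell and was the only call (1 of 206 channel transcripts, 0.485%), against 51 of 44526 transcripts in the whole table (0.115%), of which 39 were lower in MUT (0.0876%). At an unadjusted p under 0.05 there were 5 channel transcripts (2.43%), against 0.851% of the table. Of these, 4 were lower and 1 was higher in MUT, beside 0.483% and 0.368% of the table. The lower ones belonged to Cacna1g, Cacna1f, Cacna2d4 and Kcnip3, and the higher one to Cacng4. With single-digit counts, these shares rest on a handful of transcripts. Between pooled groups of whole retinas, fewer cells of a type and less RNA per cell cannot be told apart.

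**Figure D2:**
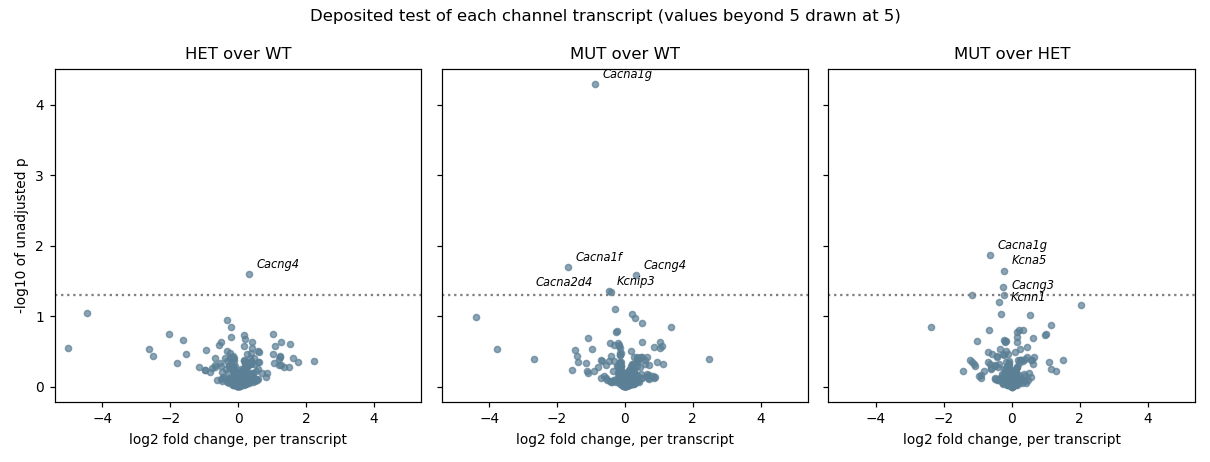
Log2 fold change (horizontal) and -log10 of the unadjusted p (vertical) of each channel transcript in the 3 deposited comparisons, 1 point per transcript, with a dotted line at the looser threshold and the genes above it named. Cacna1g stands alone at the top in MUT over WT, with a log2 fold change of -0.88; Cacng4 alone lies above the line in HET over WT, and Cacna1g, Cacng3, Kcna5 and Kcnn1 do in MUT over HET.

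Cacna1g encodes the pore of the T-type channel Cav3.1, whose splicing is known to vary its cytoplasmic loops. The gene lies on the minus strand of chromosome 11 (94408391 to 94474198, mm10). The called transcript, ENSMUST00000103166, was the most abundant of its 6 coding transcripts in WT, with 4.08 FPKM in WT, 3.42 FPKM in HET and 2.21 FPKM in MUT. HET lay between the other groups, nearer to WT. In the authors' deposited table the log2 fold change from WT to MUT was -0.88 ± 0.52 (p = 5e-05, q = 0.0388). The authors' deposited table gave -0.63 ± 0.55 for HET to MUT (p = 0.0136) and -0.25 ± 0.58 for WT to HET (p = 0.33), neither of them called.

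The summed gene level depended on the transcripts counted. Over all 10 transcripts, Cacna1g had a log2 ratio of -0.04 from WT to MUT, and over its coding transcripts alone one of -0.27, neither with a test. The 6 coding transcripts summed to 7.32, 7.17 and 6.03 FPKM in WT, HET and MUT, and the other 4, short non-coding ones, had 1.61 to 3.26 FPKM each in WT. ENSMUST00000103166 made up 55.7% of the coding sum in WT, 47.7% in HET and 36.7% in MUT. In the opposite direction, ENSMUST00000107790 had 0.395 FPKM in WT, 0.248 FPKM in HET and 1.02 FPKM in MUT. Its log2 fold change from WT to MUT in the authors' deposited table was 1.37 ± 1.97 (p = 0.14). ENSMUST00000107788 had 0.388, 0.828 and 0.797 FPKM, and the authors' deposited table gave it 1.04 ± 1.95 from WT to MUT (p = 0.284). The errors of these minor forms exceed their fold changes.

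The coding transcripts differ by a few alternative segments, read here from the GENCODE M21 transcripts (GRCm38, the assembly of mm10). Shown are some of those that separate the called form from the others. Capitals mark the alternative segment and lower case the 15 bases on each side, 5′ to 3′ on the transcript. The 69-base exon (chr11:94439709-94439777, exon 14 of 36, 23 codons) is in the called transcript and is its only annotated difference from ENSMUST00000107790. The 54-base exon (chr11:94423671-94423724, exon 26 of 36, 18 codons) is likewise its only difference from ENSMUST00000107788. The 21-base extension (chr11:94425764-94425784, 7 codons) lengthens exon 24 of 35 in ENSMUST00000021234 and is absent from the called transcript.
Cacna1g 69-base exon: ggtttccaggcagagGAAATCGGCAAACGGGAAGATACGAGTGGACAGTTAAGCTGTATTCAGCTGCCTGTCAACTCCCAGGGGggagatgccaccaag
Cacna1g 54-base exon: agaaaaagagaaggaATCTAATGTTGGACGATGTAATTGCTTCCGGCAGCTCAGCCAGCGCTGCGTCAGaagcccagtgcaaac
Cacna1g 21-base extension: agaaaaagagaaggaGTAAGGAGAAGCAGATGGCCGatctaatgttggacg
Each segment has a length divisible into whole codons. The same bases, agaaaaagagaagga, precede the 54-base exon and the extension, since both follow the end of the same shorter exon.

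Grouped by segment, the pooled coding FPKM gave a small shift in composition. Transcripts with the 69-base exon held 75.2% of the coding sum in WT, 78.1% in HET and 67.6% in MUT. Those with the 54-base exon held 94.7%, 88.4% and 86.8% in the same order, and the form with the extension 6.82%, 6.86% and 5.05%. A pair of exons of 144 and 135 bases found only in ENSMUST00000107789 held 14.1%, 18.8% and 17.7%. In every group the 69-base and the 54-base exon were each in most of the coding FPKM. The extension and the exon pair were in little of it. A further exon has 733 bases in ENSMUST00000107786 and 784 bases in the other 5 coding transcripts, which held 87.4%, 88.4% and 89.6%. These shares have no error. The split of reads between forms that share nearly all exons is an estimate of the authors' software. The other abundant T-type pore, Cacna1h, had 15.1, 13.0 and 13.6 FPKM of its main transcript ENSMUST00000159610 in WT, HET and MUT. Its log2 fold change from WT to MUT in the authors' deposited table was -0.15 ± 0.30 (p = 0.278); whether this differs from that of Cacna1g was not tested.

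**Figure D3:**
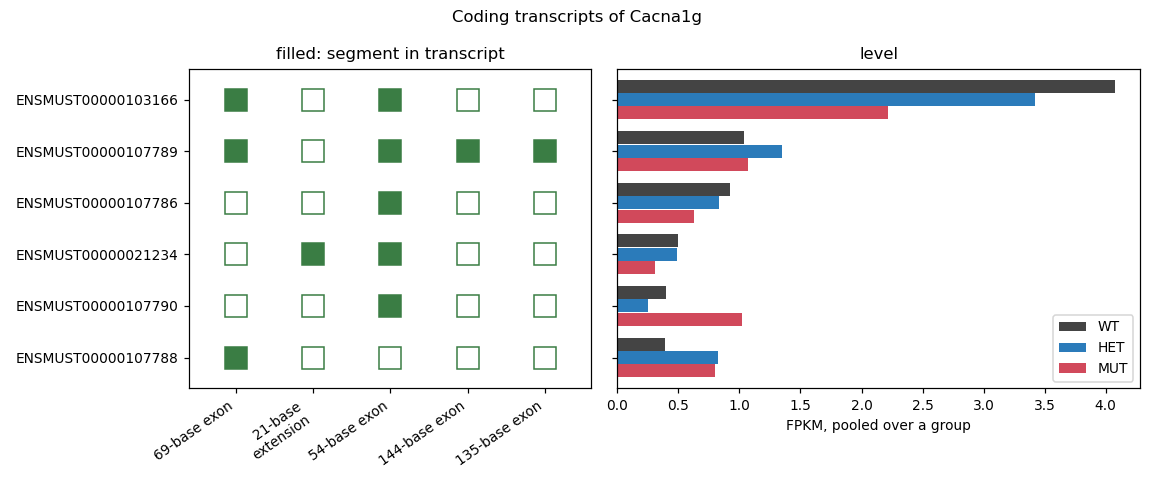
Left, which of the alternative coding segments drawn (columns, 5′ to 3′) each coding transcript of Cacna1g (rows) contains, filled where present. Right, its pooled FPKM in WT, HET and MUT, without error. The exon of 733 or 784 bases is not drawn, and ENSMUST00000107786 and ENSMUST00000107790, filled alike, differ in it. The called transcript at the top steps from 4.08 FPKM in WT through 3.42 FPKM in HET to 2.21 FPKM in MUT, while ENSMUST00000107790 is highest in MUT at 1.02 FPKM.

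The calcium channel of the photoreceptor synapse was represented by its pore Cacna1f (Cav1.4) and its alpha2delta subunit Cacna2d4. The coding transcript ENSMUST00000115726 of Cacna1f had 1.28 FPKM in WT, 0.893 FPKM in HET and 0.397 FPKM in MUT. The authors' deposited table gave a log2 fold change of -1.69 ± 1.54 from WT to MUT (p = 0.0202, not called). The other coding form, ENSMUST00000115725, had 0.328, 0.301 and 0.676 FPKM, with 1.04 ± 1.65 in the authors' deposited table (p = 0.234). Both coding forms together stood at 1.61 FPKM in WT, 1.19 FPKM in HET and 1.07 FPKM in MUT, a log2 ratio of -0.54 from WT to MUT. Over all 4 transcripts, Cacna1f had 2.50, 2.20 and 2.13 FPKM, a log2 ratio of -0.22 from WT to MUT. The longer coding form was 79.6% of the coding sum in WT, 74.8% in HET and 37.0% in MUT.

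Cacna2d4 also had 2 coding forms. ENSMUST00000037434 stood at 6.04 FPKM in WT, 4.82 FPKM in HET and 4.59 FPKM in MUT, and the authors' deposited table gave -0.40 ± 0.44 from WT to MUT (p = 0.0452, not called). ENSMUST00000186622 had 3.49, 3.00 and 3.11 FPKM, with -0.17 ± 0.73 in the authors' deposited table (p = 0.621). Here both forms were lower in MUT, and HET lay close to MUT. The segments that tell these forms apart, shown as for Cacna1g, are a 21-base exon of Cacna1f (chrX:7627688-7627708, plus strand, exon 32 of 48, 7 codons) and a 75-base exon of Cacna2d4 (chr6:119278189-119278263, plus strand, exon 16 of 38, 25 codons), each present in the form with the lower p.
Cacna1f 21-base exon: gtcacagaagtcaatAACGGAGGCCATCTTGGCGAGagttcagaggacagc
Cacna2d4 75-base exon: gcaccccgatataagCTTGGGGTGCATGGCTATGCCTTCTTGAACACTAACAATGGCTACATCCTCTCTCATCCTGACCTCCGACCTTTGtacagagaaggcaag
The transcript pairs of both genes also differ at their ends, so that the fold changes are those of whole transcripts and not of these exons.

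Of 6 channel genes known from photoreceptors, among them Kcnv2, Cacna1f, Cacna2d4 and Cacnb2, 5 had a log2 ratio below 0 from WT to MUT, with a median of -0.09. The table's share of genes below 0 was 46.2%. Kcnv2 (Kv8.2), a silent subunit of photoreceptors, had 6.04, 6.15 and 5.83 FPKM in WT, HET and MUT. From WT to HET, 4 of the 6 were below 0 with a median of -0.12, beside 46.8% of all genes, and from HET to MUT 3 of 6, beside 47.9%. The rod markers were lower in both groups with Cre, with medians of -0.14 from WT to HET and -0.12 from HET to MUT and a summed level of 611 FPKM in WT and 553 FPKM in HET; their part in the channel values was not tested. Cacna1f is on the X chromosome, as are Kcne1l and Kcnd1 (Kv4.1), whose level was 0.821, 0.828 and 0.831 FPKM in WT, HET and MUT.

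Among gamma subunits, Cacng4 had the only channel transcript with a higher level in MUT at an unadjusted p under 0.05. Its coding transcript ENSMUST00000021066 stood at 42.1 FPKM in WT, 52.4 FPKM in HET and 52.4 FPKM in MUT. The authors' deposited table gave a log2 fold change of 0.31 ± 0.30 from WT to MUT (p = 0.0262, not called). The short non-coding transcript ENSMUST00000134076 went the other way, with 10.7, 3.08 and 1.67 FPKM and -2.69 ± 8.08 in the authors' deposited table (p = 0.401), so that the gene sum had a log2 ratio of 0.03. The coding transcript stood above WT in both groups with Cre, and the non-coding one below. Cacng7, with a single transcript, stood at 0.31 ± 0.40 on the same scale in the authors' deposited table (p = 0.105). Cacng8, another AMPA receptor partner, had 3.28, 3.09 and 2.91 FPKM.

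**Figure D4:**
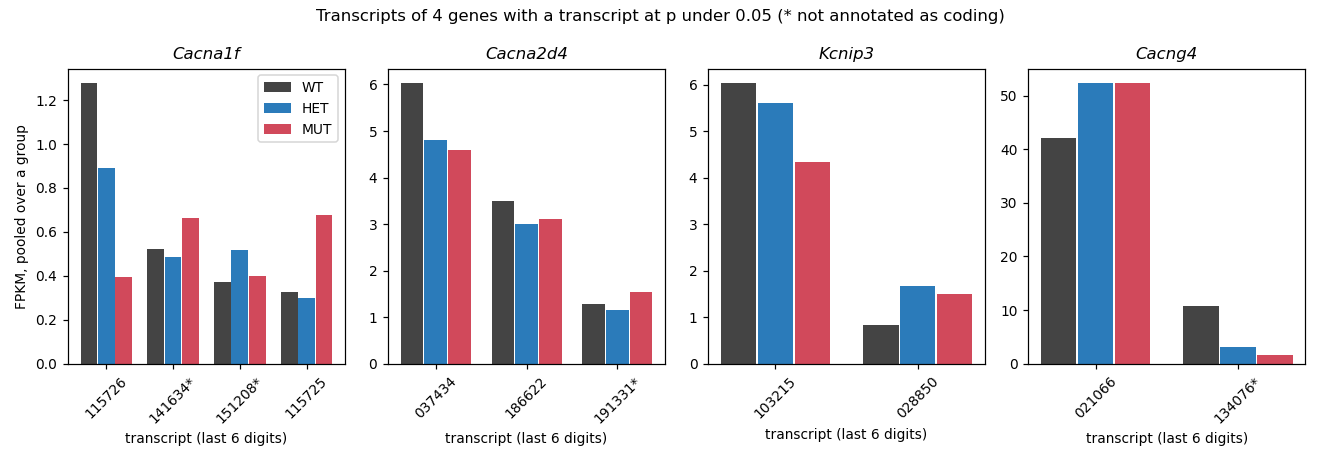
Pooled FPKM (vertical, linear) of each transcript of Cacna1f, Cacna2d4, Kcnip3 and Cacng4 in WT, HET and MUT, named by the last 6 digits of its identifier, with an asterisk where it is not annotated as coding and no error. The tallest WT bar of Cacna1f, Cacna2d4 and Kcnip3 steps down to MUT, from 6.05 to 4.33 FPKM for Kcnip3, while the coding bar of Cacng4 is higher in HET and MUT than in WT.

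Among Kv accessory genes, 7 of 8 had a log2 ratio below 0 from WT to MUT, with a median of -0.11, beside 46.2% of all genes below 0. Kcnip3 (calsenilin, a calcium-binding partner of Kv4 channels that is also known as a transcriptional repressor) had its main transcript ENSMUST00000103215 at 6.05 FPKM in WT, 5.61 FPKM in HET and 4.33 FPKM in MUT. The authors' deposited table gave -0.48 ± 0.53 from WT to MUT (p = 0.0439, not called). The other coding form, ENSMUST00000028850, had 0.827, 1.68 and 1.502 FPKM, with 0.86 ± 1.74 in the authors' deposited table (p = 0.272). These forms differ by 4 bases at the start of exon 3 of 9 in the main form (chr2:127465975-127465978, minus strand, GRCm38), in capitals, which do not make whole codons.
Kcnip3 4-base segment: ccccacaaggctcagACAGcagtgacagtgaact
The coding sequence is annotated as 768 bases with and 852 bases without the segment. The main transcript of Kcnab2, ENSMUST00000030768, had 17.6 FPKM in WT and 14.3 FPKM in MUT, and the authors' deposited table gave -0.31 ± 0.39 (p = 0.0780). The exception among the 8 was Kcnip2, at 0.702, 0.848 and 0.823 FPKM in WT, HET and MUT.

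Apart from Kcnip3, no potassium channel transcript had an unadjusted p under 0.05 from WT to MUT in the authors' deposited table. The log2 ratios of all 50 potassium channel genes had a median of -0.04, with 30 below 0 and 20 above. The lowest ratio among potassium genes at 1 FPKM or more was that of Kcnmb4, a beta subunit of the large-conductance calcium-activated channel, which had 8.05 FPKM in WT, 5.30 FPKM in HET and 5.92 FPKM in MUT, a log2 ratio of -0.44. Its coding transcript had 4.82, 3.64 and 3.84 FPKM, and the authors' deposited table gave -0.33 ± 1.01 from WT to MUT (p = 0.438). Exons of Kcnmb4 overlap those of Kcnmb4os1 and Kcnmb4os2 on the opposite strand, which had 7.17, 8.24 and 8.48 FPKM and 5.67, 6.61 and 6.21 FPKM; no source used here states a stranded protocol, and without strand the reads of these genes cannot be told apart. Kcnn1 (SK1), a small-conductance calcium-activated channel, had 6.19, 6.32 and 5.30 FPKM, and Kcnh8, a Kv12 pore, had summed levels of 1.32 FPKM in WT and 1.08 FPKM in MUT. On the higher side, Kcnk1 stood at 0.22 ± 0.29 on the log2 scale in the authors' deposited table (p = 0.0935). Kcnj11, the pore of the ATP-sensitive channel, had 2.84, 2.57 and 3.22 FPKM, and Kcnk5 (TASK2) 1.02, 1.16 and 1.13 FPKM. For Kcna2 (Kv1.2), the transcript ENSMUST00000038695 had WT and MUT levels of 0.711 and 0.0342 FPKM (p = 0.101 in the authors' deposited table), while the gene sum had a log2 ratio of 0.06. The 2 Kcna2 transcripts shared by all 3 comparisons summed to 2.36, 2.78 and 3.17 FPKM in WT, HET and MUT.

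Sodium channel genes had a median log2 ratio of 0.01 from WT to MUT, that of all genes (0.01), with 5 of 8 above 0. All 4 HCN genes lay below 0, with a median of -0.11. Hcn4 had the lowest, and the authors' deposited table gave it -0.17 ± 0.34 (p = 0.257). For calcium channel genes the median was -0.02 with 14 of 24 below 0, and for all 90 kept members of that table -0.03 with 53 below 0. No member reached an absolute log2 ratio of 0.5 from WT to MUT at this level of summing, beside 5.17% of all genes, and the median absolute ratio was 0.10 for members and 0.08 for all genes.

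**Figure D5:**
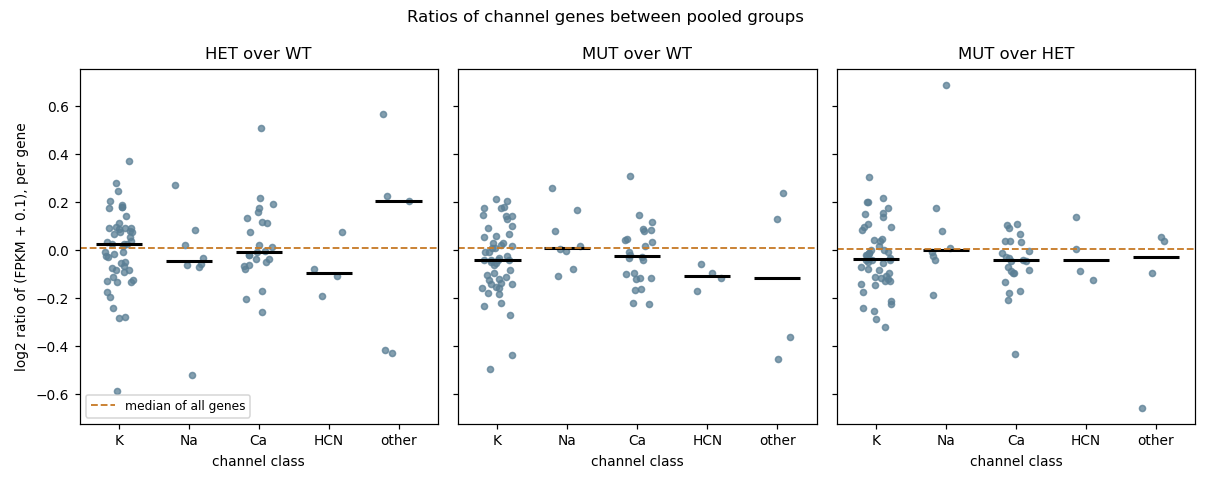
Log2 ratio of summed (FPKM + 0.1) of each kept channel gene (points) by class in the 3 comparisons of pooled groups, with a black bar at the class median and a dashed line at the median of all genes. The points scatter around the dashed line in all panels, and the 4 HCN points of MUT over WT lie below it, around a median of -0.11.

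HET retinas differ from WT by Cre and by 1 Neurog2 copy that is not conditional. None of the 212 channel transcripts was called in the authors' deposited table, whose smallest q-value over all 44119 transcripts was 0.0769, so that 0% were called in the table as well. That q-value belonged to the smallest deposited p-value, 5e-05, shared by 21 transcripts, Neurog2 among them. Even a transcript at that floor was thus not called, and the lack of calls does not show a lack of change. At an unadjusted p under 0.05 there was 1 channel transcript, higher in HET (0.472%), beside 0.227% of the table in that direction and 0.515% in both. It was the coding transcript of Cacng4, at 0.32 ± 0.31 (p = 0.0253) in the authors' deposited table. Member genes had a median log2 ratio of -0.01, with 46 of 90 below 0, and all genes a median of 0.01 with 46.8% below 0. An absolute log2 ratio of 0.5 or more was reached by 4 of 90 members (4.44%) and 4.66% of all genes. These were Kcnmb4 at -0.59, Scn9a at -0.52, Cacnb4, a calcium channel beta subunit, at 0.51, and Kcnd3os at 0.57. Over coding transcripts alone, Kcnmb4 was at -0.39 and Cacnb4 at 0.13, short of 0.5. Cacnb4 had summed WT and HET levels of 1.19 and 1.74 FPKM, and its transcripts had p-values of 0.484 or more from WT to HET in the authors' deposited table. By class the medians were 0.03 for potassium, -0.04 for sodium, -0.01 for calcium and -0.09 for HCN channel genes. At 1 FPKM or more, further low ratios were those of Cacna2d4 at -0.26, Cacna2d1 at -0.20 and the Kv4 partner Kcnip4 at -0.17, and further high ones those of Kcnk2 (TREK1), a mechanosensitive leak channel, at 0.28 and Cacng7 at 0.22.

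The comparison of HET with MUT keeps Cre in both groups and differs in the second Neurog2 copy. None of the 204 channel transcripts was called in the authors' deposited table, in which 0% of 43959 transcripts were called and the smallest q-value was 0.0762. At an unadjusted p under 0.05 there were 4 channel transcripts, all lower in MUT (1.96%), beside 0.471% of the table in that direction and 0.814% in both. Besides the Cacna1g transcript, these belonged to Kcna5, Kcnn1 and Cacng3. Kcna5, which has 1 transcript, had 17.6 FPKM in HET and 14.9 FPKM in MUT, and the authors' deposited table gave -0.24 ± 0.24 (p = 0.0225). Kcnn1 had 6.33 FPKM in HET and 5.29 FPKM in MUT, at -0.26 ± 0.28 in the authors' deposited table (p = 0.0388). The main transcript of Cacng3, an AMPA receptor partner, had 13.7 FPKM in HET and 11.7 FPKM in MUT, at -0.23 ± 0.27 in the authors' deposited table (p = 0.0496). In WT, Kcna5 stood at 15.6 FPKM, nearer to MUT than to HET, and the Cacng3 transcript at 13.1 FPKM, between both.

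Member genes had a median log2 ratio of -0.03 from HET to MUT, with 57 of 89 below 0, beside a median of 0.00 and 47.9% of all genes below 0. By class the medians were -0.04 for potassium, 0.00 for sodium, -0.04 for calcium and -0.04 for HCN channel genes. Of 8 Kv accessory genes, 7 lay below 0, with Kcnip3 lowest at -0.32; this comparison shares MUT with the one above, and from WT to HET 5 of the 8 lay above 0 with a median of 0.05. Of 7 gamma subunits, 6 lay below 0 from HET to MUT with a median of -0.04, while 5 lay above 0 from WT to HET and from WT to MUT, with medians of 0.12 and 0.03. Of the 89 members, 2 (2.25%) reached an absolute log2 ratio of 0.5, Scn9a at 0.69 and Kcnd3os at -0.66, beside 3.23% of all genes. At 1 FPKM or more, the lowest ratios were those of Cacnb4 at -0.43, Kcnip3, Kcnf1, a silent Kv subunit, at -0.29, Kcnn1 at -0.25, Kcna5 at -0.24 and Cacna1a at -0.21, or -0.05 over its coding transcripts alone. Among the highest were Kcnj11 at 0.31, Kcna2 at 0.18 and Kcnc2 (Kv3.2), a pore of fast-spiking neurons, at 0.16.

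The transcripts of a channel gene varied more than the gene, as they did over all genes. The measures are unlike: only the gene ratio has 0.1 FPKM added, and opposite changes of transcripts cancel in its sum. Between WT and MUT, 48 of 90 genes had several transcripts, and in 41 of them (85.4%) some were higher and others lower, beside 80% of all such genes. The median absolute log2 fold change was 0.21 per transcript in the authors' deposited table and the median absolute log2 ratio 0.10 per gene. From WT to HET the values were 0.24 and 0.09, with 37 of 51 genes split (72.5%, beside 80.6%), and from HET to MUT 0.16 and 0.09, with 34 of 49 (69.4%, beside 78.8%). Over all genes, the medians were 0.23 per transcript and 0.08 per gene from WT to MUT. Absolute log2 fold changes above 1 were listed for 18 channel transcripts from WT to MUT (8.74%, beside 9.64% of all transcripts of kept genes), of which 1, that of Cacna1f, had an unadjusted p under 0.05 in the authors' deposited table. From WT to HET there were 25 (11.8%, beside 9.5%) and from HET to MUT 14 (6.86%, beside 6.93%), none at that p. The median implied error was 1.33 from WT to MUT, 1.41 from WT to HET and 1.06 from HET to MUT.

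Genes of the wider channel machinery that the symbols do not take, 42 in all, were counted in the same way. They include the axon initial segment scaffold, sodium channel partners of the FGF family, calmodulins, the leak channel Nalcn and its partners, and presynaptic scaffolds. Of these, 39 had a row, and 37 were kept from WT to MUT with 133 transcripts, none of which was called (0.115% in the table) or had an unadjusted p under 0.05 (0.851%) in the authors' deposited table. Their median log2 ratio was 0.01, with 20 above and 17 below 0. The initial segment organiser Ank3 had 48.4 FPKM in WT and 53.0 FPKM in MUT, Nalcn 2.64 and 2.67 FPKM, and the release site scaffold Rims1 16.4 and 19.6 FPKM. From WT to HET the median was 0.04 over 38 genes, with none of 137 transcripts at that p (0.515% in the table). From HET to MUT it was -0.01 over 38 genes, and 2 of 131 transcripts, both higher in MUT, had an unadjusted p under 0.05, beside 0.344% of the table in that direction and 0.814% in both.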

How the data were processed

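RNA of 15 P2 retina samples was sequenced; per the submitters' processing notes, the authors used Bowtie2, Cufflinks, Cuffdiff and the mm10 build. The authors deposited 3 transcript tables with FPKM per pooled group. Per the file headers, a log2 fold change (second group over first), a test statistic (a score), p-value and q-value by the authors stand beside them. Depth per sample is unknown.

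Members and gene lists were chosen with earlier results of these data known. With Python 3.11.15, pandas 2.3.3, numpy 2.4.6 and scipy 1.17.1, FPKM was summed per gene, kept at 0.5 FPKM or more in either group and compared as the log2 ratio of (FPKM + 0.1), which understates changes of low genes and has no test. Calls used the authors' q-value under 0.05 in the authors' deposited tables. The implied error is the absolute ratio of the deposited log2 fold change to the deposited statistic; the deposited p-values, which stop at 5e-05, are not those that a normal approximation would give. The gene sums and the recomputed adjustment were tested on simulated data, and the counting of members was not.

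Genes named were those at a q-value under 0.10 or an unadjusted p under 0.05, the 8 largest ratios each way at 1 FPKM or more, the most abundant of each class, and examples by role; Kcna2 and Scn9a transcripts, Kcnd3os and Kcnip2 were chosen after their values were seen. Transcript types, exons and sequences came from GENCODE M21, matched for 224 of 225 member transcripts by identifier without version, so a structure can differ from the one the authors used. Loci are counted from 1. Alternatives changed the call rule, pseudocount, filter and transcripts summed. Some members and a marker are not reported here by name, though counts and medians include them.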

Additional observations from a re-analysis of the deposited data

How the results depend on the processing

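The single call, the Cacna1g transcript from WT to MUT, was lost at a q-value under 0.01 (0 called) and with a normal approximation to the deposited statistic (0 called). The loss at a q-value under 0.01 was fixed in advance, since 0.0388 was the smallest q-value of all transcripts in that comparison. It remained with the authors' q-value under 0.10, a recomputed Benjamini-Hochberg adjustment and no filter. The first and last of these could not remove a transcript at q = 0.0388, since the filter does not enter the authors' q-value. An unadjusted p under 0.05 in place of the q-value gave 5 transcripts from WT to MUT, 1 from WT to HET and 4 from HET to MUT, against 1, 0 and 0. The other 13 alternative counts stayed within 1.5 times. All 105 alternative class medians moved by less than 0.1 on the log2 scale. Only the HCN median from WT to MUT (-0.11) exceeded 0.1 in size, so this limit does not show that signs held. With the highest transcript only, the potassium median from WT to HET turned from 0.025 to -0.010. The sodium median from WT to MUT turned from 0.010 to -0.019 and the calcium median from WT to HET from -0.006 to 0.003. For the genes named by rule, the ratio of Cacna1g from WT to MUT reversed, to 0.13 from -0.04, when only the transcript highest in both groups on average was used, which is a short non-coding one. Without being called, Cacnb4 from WT to MUT turned from 0.15 to -0.35 with the highest transcript only and to -0.13 with coding transcripts only, and Cacng8 from -0.17 to 0.34 with the highest transcript only. Cacnb4 from WT to HET went from 0.51 to 0.02 with the highest transcript only and to 0.13 with coding transcripts only, and Cacna1g from WT to MUT to -0.27 with coding transcripts only. The sum over coding transcripts was chosen after seeing the data. Leaving out single samples could not be run, since the tables hold pooled values. No paired analysis was possible because each column holds the pooled value of a group. Pooled values limit all results to the deposited errors, and the exons of 31 members overlap a gene on the opposite strand.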
